A study of Mus musculus with 8 samples.

Results

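The transcripts encoded by mitochondrial DNA (mtDNA) were followed here in cultures of cells enriched for murine megakaryocytes (MKs), the bone marrow cells that release platelets. The members were the rows of the deposited gene counts whose symbols were mt-Nd1, mt-Nd2, mt-Nd4, mt-Nd5, mt-Co1, mt-Co2, mt-Co3, mt-Cytb, mt-Atp6 and mt-Atp8. All 10 were found among the 13387 genes of the table, and all 10 were among the 11722 genes that passed edgeR's filter on low counts. The table held 3 other rows with an mt- symbol, mt-Nd3, mt-Nd4l and mt-Nd6, which also passed and are given beside the members. Rows of the mitochondrial ribosomal and transfer RNAs were not analysed here.

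Mitochondria carry a small circular genome of their own, present in many copies per cell. It is read as long transcripts that are then processed into single messenger RNAs, mostly at the transfer RNA sequences lying between them. Its protein-coding genes all specify core subunits of the respiratory chain and of ATP synthase, whose other subunits come from nuclear genes. Platelets carry mitochondria but no nucleus, and they receive these mitochondria from the MK.

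Bulk RNA-Seq was performed on 8 libraries, of which 4 came from MKs kept alone in culture and 4 from cocultures of MKs with bone marrow mesenchymal stem cells (MSCs), the stromal cells that surround MKs in the marrow. Cultures of both groups lasted 18 hours, and RNA was converted to cDNA with a low-input SMART-Seq kit. The labels give all MKs as wild-type C57BL/6 bone marrow cells with no other treatment, and the design text gives the MSCs as wild-type primary cells sorted as CD45-Ter119-CD31-CD51+CD140a+. No transgene or deleted allele is given for either group, and the study's methods give 1 age range for its mice as a whole rather than by group. The labels describe MKs that had been separated from platelets, whereas the methods of the study describe platelets pooled from several wells of culture. Because MKs and MSCs were of the same strain, a mitochondrial read does not show which of these cell types it came from. The labels do not tie replicates to animals, whereas the study's legend for this experiment counts mice per group. The p-values measure the spread between these samples.

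Several facts about the libraries bear on every value below. Totals ran from 4939874 to 9272984 counts in MKs cultured alone and from 5193949 to 12523616 in cocultures. Replicate 3 of the cocultures stood apart, with 10735 genes detected against 12406 to 13193 in the other 7 libraries. The summed level of 16 MK and platelet markers was 2379 to 2631 CPM (counts relative to the library's total after edgeR's TMM scaling, times 1000000) in MKs cultured alone and 1829 to 2384 CPM in cocultures, and 1 of the 16, Nfe2, was called, at a log2 fold change of −2.72 (edgeR adjusted p = 0.0234). When coculture replicate 3 was left out, 4 of the 16 were called lower and 1 higher. Markers of other cells moved between the groups. The summed level of the 10 MSC markers with a row, of which 7 rose, was 28.1 to 43.6 CPM in MKs cultured alone and 1494 to 3855 CPM in cocultures, and that of 11 macrophage markers, of which 8 rose, was 152 to 227 and 911 to 1353 CPM. The 11 neutrophil markers all fell and summed to 84305 to 86075 CPM in MKs cultured alone and 4288 to 10182 CPM in cocultures, and 8 B cell markers, of which 4 fell, to 839 to 904 and 81.8 to 197 CPM. In MKs cultured alone, 1 MSC marker (Grem1) and 1 macrophage marker (Marco) were at 0 in all libraries. The 7 erythroid markers with a row summed to 33.4 to 54.3 CPM and 15.96 to 93.3 CPM, and none of the 4 tested passed. The highest value was that of coculture replicate 3. In the fit without that library, in which more genes were tested, 4 of the 7 were called lower. In MKs cultured alone, the neutrophil markers thus summed far above the MK and platelet markers, and the study's methods describe the cells taken from marrow as enriched for MKs. The name MKs is used here for the cultures as labelled. The part of the other cells in the mitochondrial values was not tested in either group. In bulk RNA, fewer cells of a type and less RNA per cell cannot be told apart.

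All 10 members lie on the plus strand of the mitochondrial chromosome and have no introns, so each is a single exon in the GENCODE annotation of GRCm38, the assembly of the mm10 build named in the labels. In genome order, mt-Nd1 occupies chrM:2751-3707, mt-Nd2 chrM:3914-4951, mt-Co1 chrM:5328-6872, mt-Co2 chrM:7013-7696, mt-Atp8 chrM:7766-7969 and mt-Atp6 chrM:7927-8607. They are followed by mt-Co3 at chrM:8607-9390, mt-Nd4 at chrM:10167-11544, mt-Nd5 at chrM:11742-13565 and mt-Cytb at chrM:14145-15288. Some members overlap, and some end without a full stop codon, which bears on how reads were counted. The longest overlap between members, 43 bases, covers 21.1% of mt-Atp8 and 6.3% of mt-Atp6 and is shown because a read lying within it belongs to both genes. Its capitals mark the start codon of mt-Atp6 and the stop codon of mt-Atp8.
mt-Atp8 and mt-Atp6, chrM:7927-7969, plus strand, GRCm38: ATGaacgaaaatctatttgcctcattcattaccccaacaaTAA
mt-Atp6 and mt-Co3 share 1 base. mt-Nd4 shares 7 bases with mt-Nd4l, and mt-Nd5 shares 14 bases with mt-Nd6 on the opposite strand.

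The last 30 bases of 5 members are shown because the 3′ end of the message is where the poly(A) tail is added. Capitals mark the stop codon where it is complete, and otherwise the single T with which the gene ends.
mt-Nd1: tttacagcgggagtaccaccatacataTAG
mt-Co1: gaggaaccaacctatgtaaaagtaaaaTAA
mt-Co3: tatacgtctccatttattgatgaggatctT
mt-Nd4: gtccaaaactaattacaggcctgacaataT
mt-Cytb: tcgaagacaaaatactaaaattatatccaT
In mt-Co3, mt-Nd4 and mt-Cytb the length of the gene leaves a remainder of 1 base after division into codons. In such genes the poly(A) tail is known to supply the rest of the stop codon.

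Copies of mtDNA also lie in nuclear chromosomes. Transcripts annotated outside mtDNA matched 7 of the 10 members at 95% identity or more over at least 200 bases. The longest match was of mt-Co1 with Gm13340 on chromosome 2, at 97.6% identity over 1545 bases. mt-Atp6, mt-Co2, mt-Co3 and mt-Nd4 each had a match at 100% identity. None of the 9 matching transcripts had a row in the count table, so how reads were divided between a member and its copy is uncertain. mt-Nd1, mt-Cytb and mt-Atp8 had no such match.

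The 10 members took 8.16%, 3.37%, 5.71% and 6.73% of all counts in replicates 1 to 4 of MKs cultured alone. They took 7.18%, 4.46%, 6.11% and 6.43% in replicates 1 to 4 of the cocultures. The groups overlapped almost entirely, with means of 5.99% ± 2.01 (SD, n = 4) and 6.05% ± 1.15 (SD, n = 4). Counting error was far smaller than this spread, and the widest 95% Wilson interval of a library ran from 8.13% to 8.18%. With all 13 mt- rows the means were 6.07% ± 2.04 and 6.15% ± 1.17. The spread lay within the groups and was widest between replicates 1 and 2 of MKs cultured alone. Among MKs cultured alone, the share ran in the reverse order of the total counts, from 8.16% at 4939874 counts to 3.37% at 9272984 counts. In cocultures no such order was seen, and the part of depth was not tested.

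**Figure D1:**
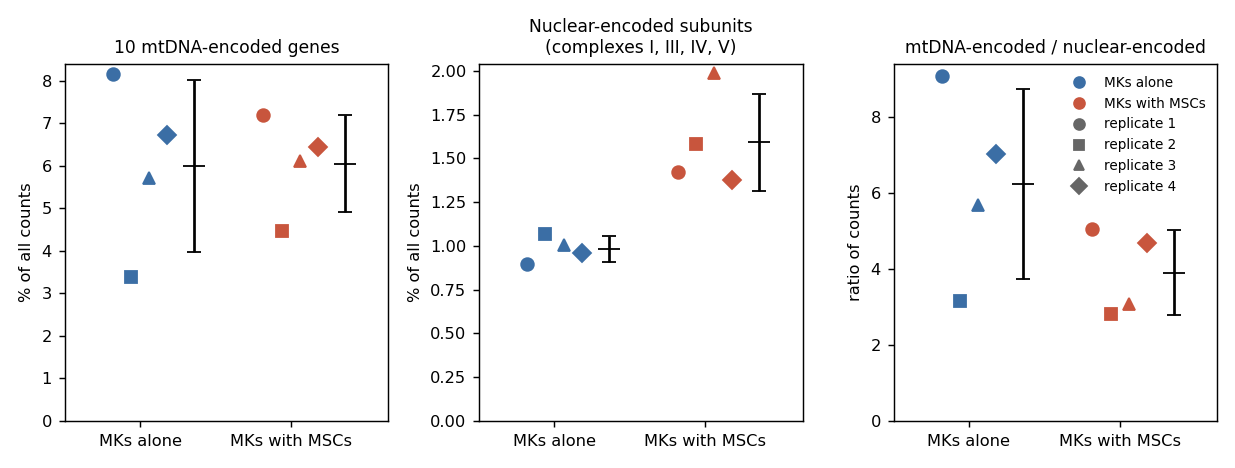
Share of all counts held by the 10 mtDNA-encoded genes (left, %), share held by the nuclear-encoded subunits of complexes I, III, IV and V (middle, %) and the ratio of the summed counts (right) in each library. Points are libraries, with a shape for each replicate number, and bars give the mean ± SD of 4 libraries. The groups overlap on the left and on the right, and in the middle every coculture (1.38% to 1.99%) lies above every library of MKs cultured alone (0.897% to 1.07%).

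Each member was then tested between the groups with edgeR on all 11722 genes. None of the 10 members passed, with the limits set at a 2-fold change and 0.05 for the p-value after Benjamini-Hochberg adjustment. Over all genes tested, 13.2% were called higher and 7.31% lower in cocultures, and 23.0% passed the adjusted p alone, whatever the fold. Of the called genes 64.3% were higher, a share that became 80.5% with libraries scaled to the MK and platelet markers and 33.9% with libraries scaled to the nuclear-encoded respiratory chain. None of the members reached an unadjusted p of 0.05, by edgeR or by DESeq2, against 4236 of all genes tested with edgeR. The adjusted p-values of the members from edgeR ran from 0.269 to 0.939. Without coculture replicate 3, 55.1% of 12267 genes passed the adjusted p alone, and of the members mt-Co1 did. With all libraries, the CPM of no member separated the groups, whereas 40.3% of all genes tested had groups that did not overlap. The fitted log2 fold changes, coculture over alone, had a median of 0.31 over the members and 0.03 over all genes tested. Their sign was positive for 7 of the 10, a count that became 9 when libraries were scaled to the MK and platelet markers, 0 when scaled to the nuclear-encoded respiratory chain, and 4 without replicate 3 of the cocultures. The standard errors of 0.28 to 0.54 on the log2 scale left wide intervals. For 9 of the 10 members, mt-Co3 being the exception, the 95% confidence interval reached a 2-fold change in at least 1 direction. A change of that size was therefore not excluded for these members.

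Complex I, the NADH dehydrogenase that feeds electrons into the chain, is represented by mt-Nd1, mt-Nd2, mt-Nd4 and mt-Nd5. mt-Nd1 encodes a membrane subunit next to the site where ubiquinone is reduced. Its level was 7503, 2168, 4197 and 5478 CPM in MKs cultured alone and 7747, 4465, 9395 and 6500 CPM in cocultures. Replicate 2 was the lowest library of each group, and the groups overlapped. The log2 fold change was 0.54 (SE 0.39, 95% CI −0.34 to 1.41, edgeR adjusted p = 0.353). mt-Nd2 encodes an antiporter-like subunit of the proton-pumping arm. It was measured at 2155, 681, 985 and 1446 CPM in MKs cultured alone and at 1903, 918, 4831 and 1600 CPM in cocultures. Only replicate 3 of the cocultures lay above the range of MKs cultured alone, and the fold change of 0.81 on the log2 scale had the interval −0.40 to 2.03 (edgeR adjusted p = 0.313). Without that library it was 0.14. mt-Nd4, of the same antiporter-like kind, ranged from 1222 to 3129 CPM and from 1557 to 5198 CPM, again with coculture replicate 3 as the highest library. Its log2 fold change was 0.36 (edgeR adjusted p = 0.577), and without that library it was −0.11. mt-Nd5, the largest of these subunits, ranged from 430 to 1181 CPM and from 712 to 1930 CPM, with a log2 fold change of 0.47 (edgeR adjusted p = 0.412), or 0.11 without coculture replicate 3.

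Cytochrome b, the product of mt-Cytb, is the only subunit of complex III made in mitochondria and holds its quinone sites. The level of mt-Cytb was 7343, 2406, 5277 and 4960 CPM in MKs cultured alone and 6059, 4134, 8776 and 5671 CPM in cocultures. These ranges overlapped, and the log2 fold change of 0.30 did not pass the test (SE 0.36, edgeR adjusted p = 0.590).

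Complex IV, cytochrome c oxidase, has 3 subunits from mtDNA. mt-Co1 encodes the catalytic subunit, where oxygen is reduced to water. It was measured at 12996, 4233, 9747 and 9256 CPM in MKs cultured alone and at 6103, 4364, 7898 and 6011 CPM in cocultures. In MKs cultured alone, 3 libraries lay above all 4 cocultures, while replicate 2 lay below them. The log2 fold change was −0.57 (SE 0.34, 95% CI −1.35 to 0.21, edgeR adjusted p = 0.269). Without coculture replicate 3 it was −0.74 with an adjusted p of 0.0406 in edgeR, which passed the adjusted p and not the 2-fold limit. Scaled to the nuclear-encoded respiratory chain it was −1.27 with an adjusted p of 0.0372, the sole alternative under which a member was called. mt-Co3, a structural subunit of the catalytic core, was measured at 26940, 13513, 18576 and 23344 CPM in MKs cultured alone. Its levels in cocultures were 24450, 14635, 16493 and 18607 CPM. It had the highest level of all members and the smallest standard error, and its log2 fold change was −0.15 (SE 0.28, 95% CI −0.78 to 0.48, edgeR adjusted p = 0.738). mt-Co2, which encodes the subunit that receives electrons from cytochrome c, ranged from 2267 to 6227 CPM and from 2163 to 7279 CPM, with a log2 fold change of −0.06 (edgeR adjusted p = 0.939).

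ATP synthase, complex V, takes its proton channel subunit from mt-Atp6 and a small membrane subunit from mt-Atp8. mt-Atp6 was measured at 19111, 4784, 8588 and 12946 CPM in MKs cultured alone and at 13323, 6926, 15696 and 11491 CPM in cocultures. The cocultures lay within the range of MKs cultured alone, and the log2 fold change was 0.06 (SE 0.43, edgeR adjusted p = 0.935). mt-Atp8 ranged from 411 to 2034 CPM and from 721 to 2322 CPM, with a log2 fold change of 0.32 (SE 0.50, edgeR adjusted p = 0.691). Because both genes are read on the same processed message, the counts on the shared stretch printed above could fall on either.

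The 3 rows outside the list gave no call either. mt-Nd3 and mt-Nd4l, further subunits of complex I, had log2 fold changes of 0.11 and 0.43 (edgeR adjusted p = 0.854 and 0.462). mt-Nd6, the one protein-coding gene of the opposite strand, ranged from 171 to 521 CPM in MKs cultured alone. In cocultures it was measured at 391, 231, 1427 and 361 CPM, with a log2 fold change of 0.83 (SE 0.58, edgeR adjusted p = 0.343). The high value was again that of coculture replicate 3. Since the use of strand in counting is not stated, reads of mt-Nd6 cannot be fully told apart from reads of the long transcripts of the plus strand. This holds for mt-Nd5 where the genes overlap, and it need not be confined to that stretch.

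**Figure D2:**
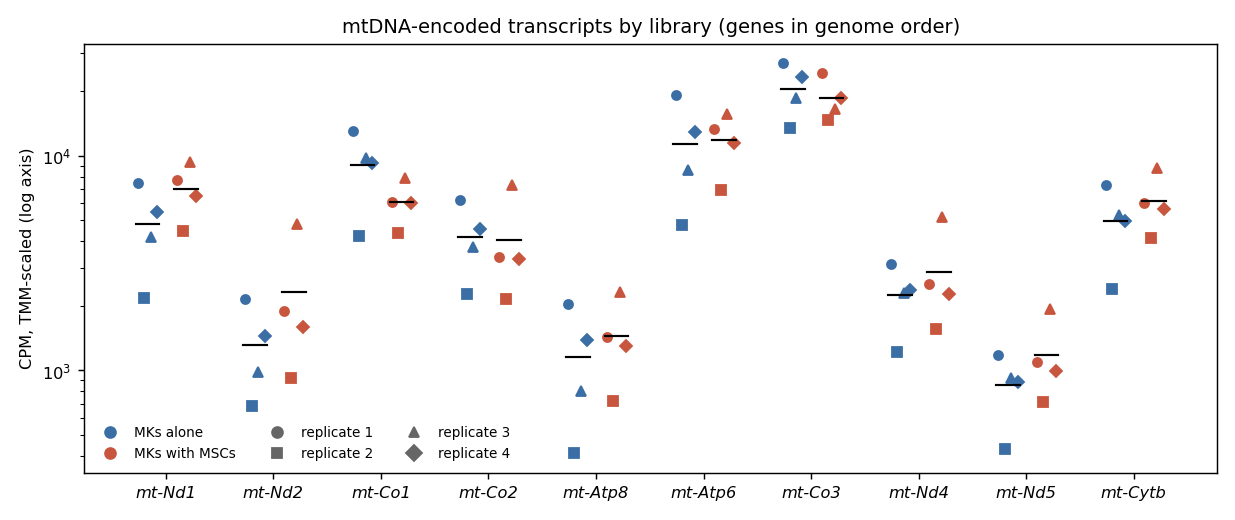
Level of each mtDNA-encoded transcript (CPM with TMM scaling, log axis) in the 8 libraries, with genes in genome order. Points are libraries, shapes are replicate numbers and black lines are group means of 4 libraries. The groups overlap for all 10 genes, and replicate 2 is the lowest library of its group throughout.

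The members were high or low together from library to library. In MKs cultured alone, replicate 1 had the highest CPM and replicate 2 the lowest for 10 of 10 members. In cocultures, replicate 2 was the lowest for 10 of 10 members and replicate 3 the highest for 9 of 10, with mt-Co3 as the exception. Over the 8 libraries, Pearson's r of log2(CPM + 1) between members ran from 0.39 for mt-Nd2 with mt-Co3 to 0.98 for mt-Nd5 with mt-Cytb. These points share their libraries, their depth and their scaling, so the values are a description. Outside the mt- rows, the genes whose log2(CPM + 1) was most like that of the summed members over the 8 libraries, among 8973 genes with at least 10 CPM, were Slc25a24 (r = 0.92), Rbm34 (r = 0.90), Mob4 (r = 0.89), Togaram1 (r = 0.88) and Csnk1a1 (r = 0.87). Slc25a24 encodes a carrier of ATP-magnesium and phosphate in the inner mitochondrial membrane, and its level lay between 140.2 and 232.7 CPM. These genes were picked as the highest of 8973 over only 8 libraries, where high values can arise from the choice alone. No test was run, and the values are a description.

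Although transcribed together, the members differed widely in counts per length. Per kilobase of gene length, mt-Co3 was the highest at a mean of 24961 CPM per kb over the 8 libraries, and it lay above mt-Atp6 (17045 CPM per kb) in 7 of 8 libraries. mt-Atp6 lay above mt-Atp8 (6381 CPM per kb) in all 8, although both are read on the same processed message. Counts per length are therefore not a measure of transcript level alone, and what else they hold was not tested. A middle group followed, of mt-Atp8, mt-Nd1, mt-Co2, mt-Co1 and mt-Cytb, with means between 4876 and 6381 CPM per kb. Within it mt-Atp8 exceeded mt-Nd1 in 3 of 8 libraries, so the order of these neighbours did not hold beyond their spread. Other neighbours changed order with the group. mt-Co1 exceeded mt-Cytb in 4 of 4 libraries of MKs cultured alone and in 0 of 4 cocultures, with means of 5863 and 4368 CPM per kb alone and 3944 and 5385 CPM per kb in cocultures. mt-Nd1 exceeded mt-Co2 in 0 of 4 libraries of MKs cultured alone and in 3 of 4 cocultures. These orders were noted after the values were seen and were not tested. mt-Cytb lay above mt-Nd4 (1866 CPM per kb) in all 8 libraries and mt-Nd2 (1748 CPM per kb) above mt-Nd5 in all 8. mt-Nd5 was the lowest at 559 CPM per kb. Position along the genome did not order them, since mt-Nd2, the second member, was among the low ones and mt-Co3, the seventh, was the highest. By plain counts, mt-Co3 was the most abundant gene of the whole table in 3 libraries, all of them cocultures, and ranked between 2 and 4 in the others. mt-Atp6 ranked between 2 and 10 and mt-Co1 between 4 and 13.

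The make-up of the mitochondrial counts does not depend on scaling between libraries. Complex I members together made up 15.8%, 14.0%, 15.2% and 15.3% of the summed counts of the members in MKs cultured alone. They made up 19.5%, 18.9%, 26.8% and 19.7% in cocultures. All cocultures lay above all libraries of MKs cultured alone, also without coculture replicate 3, the highest. The 3 complex IV members held 52.1% to 62.3% in MKs cultured alone and 39.7% to 52.1% in cocultures, and these ranges just met. mt-Cytb, the sole complex III member, and the complex V members overlapped more, at 7.44% to 9.57% against 8.90% to 10.99% and at 16.2% to 23.9% against 18.8% to 22.6%.

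Within complex I, mt-Nd1 carried most of this. It held 8.47%, 6.75%, 7.61% and 8.22% of the members' counts in MKs cultured alone and 11.4%, 10.999%, 11.8% and 11.3% in cocultures. The means were 7.76% ± 0.76 and 11.4% ± 0.32 (SD, n = 4), and the groups did not overlap. mt-Co1 showed the reverse, with 14.7%, 13.2%, 17.7% and 13.9% in MKs cultured alone and 8.97%, 10.8%, 9.90% and 10.4% in cocultures. Its means were 14.9% ± 1.98 and 10.01% ± 0.77, and these groups did not overlap either. As a result, replicates 1 to 4 held 0.577, 0.512, 0.431 and 0.592 counts of mt-Nd1 for each count of mt-Co1 in MKs cultured alone and 1.27, 1.02, 1.19 and 1.08 in cocultures. This pair was chosen after its values were seen, so no test is given. When each of the 11722 genes was expressed relative to the summed members, 9.38% separated the groups upward and 13.1% downward, and 1 of 10 members in each direction is near that background. The members are parts of that sum and the other genes are not, so the background is not fully alike and cannot decide how usual these separations are. In the edgeR fit with libraries scaled to the summed members, neither mt-Nd1 (log2 fold change 0.55, adjusted p = 0.385) nor mt-Co1 (−0.57, adjusted p = 0.373) passed. The standard error was 0.35 for each and is drawn in part from all genes tested. It does not measure the spread of the shares alone, so that fit cannot decide whether the shares differ. mt-Co1 has nuclear copies of near-identical sequence and mt-Nd1 had none by the limits above, and the part of such copies was not tested. The MSC, macrophage and neutrophil markers moved between the same groups, and their part in this make-up cannot be told apart from that of the coculture.

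**Figure D3:**
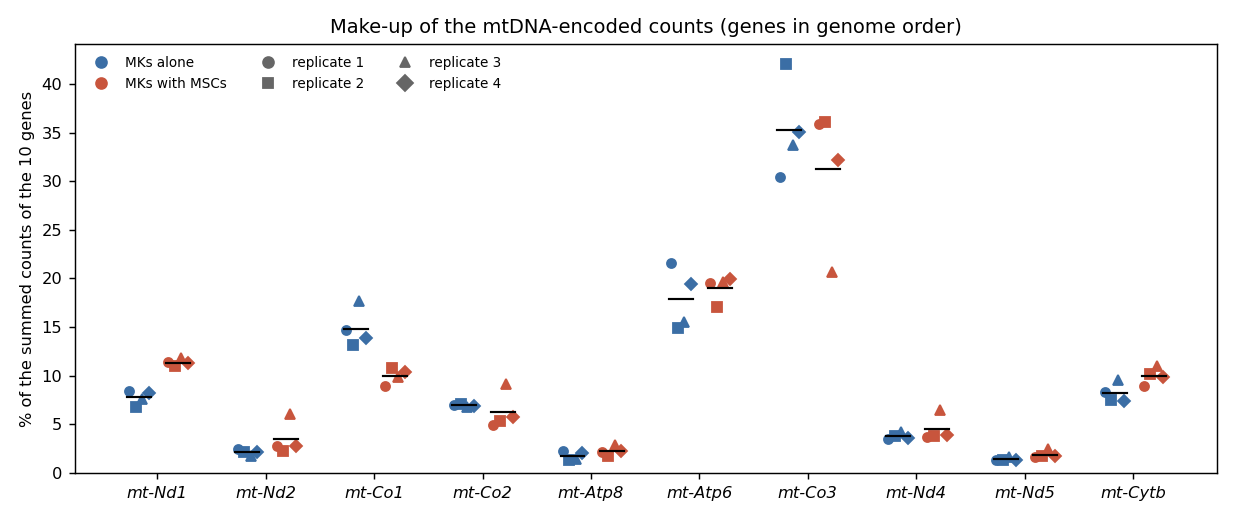
Percentage of the summed counts of the 10 mtDNA-encoded genes held by each gene in the 8 libraries, in genome order. Points are libraries, shapes are replicate numbers and black lines are group means of 4 libraries. The groups are apart for mt-Nd1 (up to 8.47% alone, from 10.999% in cocultures) and mt-Co1 (from 13.2% alone, up to 10.8% in cocultures), and coculture replicate 3 is low for mt-Co3 (20.7%) and high for mt-Nd2 (6.05%) and mt-Nd4 (6.51%).

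The study measured the ratio of Nd1 to Hk2, a mitochondrial gene over the nuclear gene of hexokinase, by RT-PCR in MKs. It found the ratio lower after coculture and took this as reduced mitochondrial content. The same pair was taken here from the RNA counts. These are ratios of transcripts and say nothing of the number of mtDNA copies. There were 148.3, 47.0, 72.5 and 125.2 counts of mt-Nd1 for each count of Hk2 in MKs cultured alone and 218.7, 91.3, 653.0 and 170.2 in cocultures. Coculture replicate 3 was far above the rest and held 138 counts of Hk2, the fewest of the 8 libraries. The groups overlapped. The mean log2 ratio was higher by 1.28 in cocultures, the reverse of the direction in the study. A two-sided exact permutation test gave p = 0.114 and cannot go below 0.0286 with 4 libraries per group. The direction depended on the nuclear gene. Relative to Gapdh, a glycolytic enzyme, the difference was −0.75 (exact permutation p = 0.257), and relative to Actb, encoding cytoplasmic actin, it was 0.30 (exact permutation p = 0.600). Gapdh itself was higher in cocultures (log2 fold change 1.53, edgeR adjusted p = 0.0210), whereas Hk2 (−0.54, adjusted p = 0.336) and Actb (0.54, adjusted p = 0.378) did not pass.

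The nuclear-encoded partners of the members were described from the same fit. Of 36 nuclear-encoded subunits of complex I tested, 12 rose and none fell in cocultures, with a median log2 fold change of 1.06. Of the 9 subunits of complex III 5 rose, of the 11 of complex IV 5 rose, and of the 18 of ATP synthase 5 rose, with none falling and with medians of 1.19, 1.11 and 0.71. Complex II, which has no mtDNA-encoded subunit, had 1 of 4 rise, with a median of 0.60. These counts, 28 of 78 in all, stand beside 13.2% of all genes called higher. They did not stay above the background in every fit that left out 1 library. Without coculture replicate 1, 2 or 4 the count was 36, 21 or 24 of 78, above a background of 12.9%, 11.2% or 11.3%. Without coculture replicate 3 the count was 9 of 78, below the 20.6% of all genes that were then called higher. Without any 1 library of MKs cultured alone it was 3 to 6 of 78, below a background of 8.60% to 9.06%. The count was 14 with the replicate number as a block, 45 scaled to the MK and platelet markers, and 1 scaled to the summed members, beside 9.35%, 18.8% and 6.98% of all genes. By the adjusted p alone, without the 2-fold limit, 36 of the 78 were higher and none lower with all libraries, and 45 were higher and 1 lower without coculture replicate 3. Over all genes 23.0% and 55.1% passed in those fits, in either direction. Taken in either direction, the subunits without coculture replicate 3 were near that share. The share of all genes that passed and were higher was not counted, so the direction has no background beside it.

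Among these genes the largest rises were those of Cox7c, a small subunit of complex IV, and of Uqcrq, a subunit of complex III. Cox7c had 106, 262, 431 and 231 counts in MKs cultured alone and 552, 557, 5827 and 491 in cocultures, with a log2 fold change of 2.59 (SE 0.80, edgeR adjusted p = 0.0474). Without coculture replicate 3 the change was 1.01 (adjusted p = 0.00209). Uqcrq showed the same with 5827 counts in that library against 960 to 1291 in the other cocultures and 162 to 546 in MKs cultured alone (log2 fold change 2.35, edgeR adjusted p = 0.0151, and 1.45 without that library). Ndufa11 of complex I rose by 2.08, Atp5g1, which encodes the proton-carrying ring subunit of ATP synthase, by 1.91 and Sdhc, a membrane anchor of complex II, by 1.24 on the log2 scale (edgeR adjusted p = 0.0240, 0.00695 and 0.0276). Without coculture replicate 3 these were 1.27, 1.43 and 0.82, and Sdhc was then below the 2-fold limit. The most abundant subunits had smaller fitted changes. Atp5b, the catalytic subunit of ATP synthase, and Cox5a of complex IV passed the adjusted p but not the 2-fold limit (log2 fold changes 0.92 and 0.79, edgeR adjusted p = 0.0257 and 0.0489). Ndufb6 (0.75), Uqcrb (0.30) and Sdha (−0.11) did not pass.

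The summed counts of nuclear-encoded subunits of complexes I, III, IV and V were 0.897%, 1.07%, 1.005% and 0.957% of all counts in MKs cultured alone and 1.42%, 1.58%, 1.99% and 1.38% in cocultures. The groups did not overlap on this measure, with or without coculture replicate 3. Set against them, the members gave 9.09, 3.15, 5.68 and 7.03 counts for each nuclear-encoded count in MKs cultured alone and 5.05, 2.82, 3.08 and 4.67 in cocultures. The means were 6.24 ± 2.49 and 3.91 ± 1.12 (SD, n = 4), and the groups overlapped. By complex the ratio was 12.2 to 29.7 against 4.76 to 13.5 for complex IV, 1.42 to 4.70 against 1.71 to 3.12 for complex I, 2.10 to 7.20 against 2.69 to 4.23 for complex III and 1.23 to 5.03 against 1.35 to 2.82 for complex V. Each of these pairs of ranges overlapped, and no test was run on them.

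**Figure D4:**
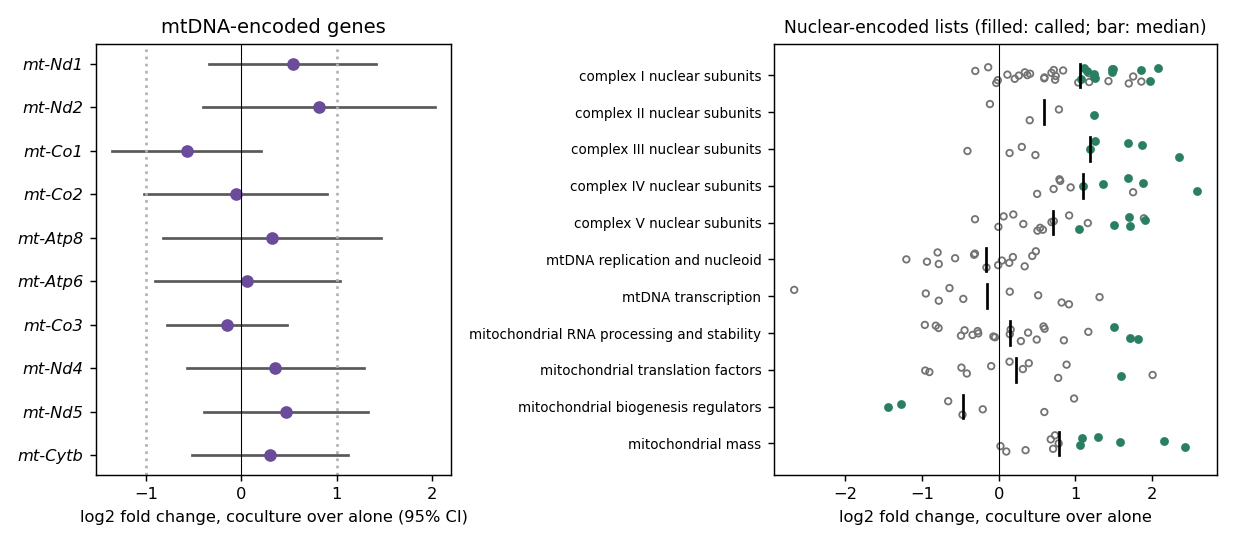
Left, log2 fold change of each mtDNA-encoded gene (coculture over alone) with its 95% confidence interval from edgeR, and dotted lines at a 2-fold change. Right, log2 fold changes of the genes of 11 nuclear-encoded lists, with filled points for called genes and a bar at each median. All 10 intervals on the left include 0, and the called subunits of complexes I to V on the right are all higher in cocultures.

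The factors that copy, read and process mtDNA gave few calls. None of 15 genes of mtDNA replication and the nucleoid was called, with a median log2 fold change of −0.16, and the most abundant, Ssbp1, which encodes the mitochondrial single-stranded DNA binding protein, was at 0.14 (edgeR adjusted p = 0.704). None of 10 genes of mtDNA transcription was called, with a median of −0.16. The most abundant, Tfb2m, a transcription initiation factor, had a log2 fold change of 0.92 (edgeR adjusted p = 0.157). Over all genes 13.2% were called higher and 7.31% lower. Without coculture replicate 3, 1 gene of the transcription list was called lower and 0 of the replication list, beside 20.6% of all genes higher and 15.4% lower. Of the genes named outside the rule and after their values were seen, Polrmt, the mitochondrial RNA polymerase, had 1.32 (adjusted p = 0.0764) and Tfam, which packages mtDNA and starts its transcription, had −0.78 (SE 0.91, adjusted p = 0.584). Tfam had 217 to 445 counts in 7 libraries and 3 in coculture replicate 3. Other genes of these lists also had few counts in that library, among them Primpol (0), Mterf2 (0), Twnk (1) and Tefm (3), whereas Ssbp1 had 1662. Their standard errors ran from 0.88 for Tefm to 1.08 for Primpol, so the lack of a call does not exclude a change in them.

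Of 22 genes of mitochondrial RNA processing and stability 3 rose, a share near the 13.2% of all genes called higher, among them Rexo2, an exonuclease that clears short RNA fragments, and Slirp, the partner of Lrpprc in stabilising mitochondrial messages. Slirp had 197, 484, 450 and 316 counts in MKs cultured alone and 1419, 1108, 2984 and 550 in cocultures. Its log2 fold change was 1.82 (SE 0.36, edgeR adjusted p = 0.00695), and that of Rexo2 was 1.71 (adjusted p = 0.00173). The list had 3 called genes without coculture replicate 3 as well, beside 20.6% of all genes. Lrpprc, chosen after its values were seen, had a log2 fold change of 0.38 (adjusted p = 0.246). Of 12 translation factors 1 rose, Tsfm, an elongation factor of mitochondrial ribosomes, by 1.60 on the log2 scale (edgeR adjusted p = 0.0374), and Tufm, the most abundant, had 0.78 (adjusted p = 0.0734).

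Among 7 tested regulators of mitochondrial biogenesis, 2 fell and none rose, with a median log2 fold change of −0.47, beside 7.31% of all genes called lower. Gabpb2 and Gabpb1, subunits that pair with the DNA-binding factor Gabpa to drive nuclear genes of the respiratory chain, fell by 1.44 and 1.27 on the log2 scale (edgeR adjusted p = 0.0424 and 0.00529). Also without coculture replicate 3 and with the replicate number as a block 2 were called lower, beside 15.4% and 4.89% of all genes. Yy1, the most abundant of the list, had −0.47 (adjusted p = 0.287). Of 13 genes taken as measures of mitochondrial mass 6 rose and none fell, with a median of 0.78, beside 13.2% of all genes called higher. In the fit without coculture replicate 3, 4 of the 13 rose, beside 20.6% of all genes. Tomm40, the import channel of the outer membrane, rose by 2.43 (edgeR adjusted p = 0.0137, and 1.63 without that library) and Hspa9, the import motor chaperone, by 1.30 (edgeR adjusted p = 0.00742). Hspa9 had 1365 to 3169 counts in MKs cultured alone and 3828 to 10166 in cocultures.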

How the data were processed

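The labels gave the group and replicate number of each library. The values deposited by the authors were whole-number counts for each gene, not normalized. According to the methods, reads of paired-end SMART-Seq HT libraries were filtered with fastp and quantified with kallisto on the mm10 transcriptome. Summing over transcripts, rounding, filters and use of strand are not given in the sources used here, nor are the batches of the authors' DESeq2 design. The members and gene lists were chosen with earlier results of these data known.

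All 8 libraries were fitted without covariates in edgeR 4.0.16 (R 4.3.3), using filterByExpr, TMM scaling and the quasi-likelihood test in its robust form, with Benjamini-Hochberg adjustment over 11722 genes. A gene was called when it changed 2-fold or more, its adjusted p did not exceed 0.05, and 1 group averaged 1 CPM or more. Floors of 3 counts corresponded to 0.24 to 0.61 CPM, and these floors and the Wilson intervals cover counting error only, since reads carry no molecular identifiers. The intervals of fold changes come from edgeR and rest on the spread between libraries. Ratios to Hk2, Gapdh and Actb were compared by exact permutation. DESeq2 1.42.0, other scalings and filters, a replicate block and leaving out each library were alternatives. The fits were also run on simulated counts in which all genes had the same dispersion, which need not be that of the members. Positions, lengths and sequences came from GENCODE vM21 (GRCm38), and nuclear copies were sought with BLAST+ 2.17.0. No library was left out. All members are named, as are the other mt- rows, the 5 genes most like the summed members, and, in each nuclear list, the called gene with the largest rise and with the largest fall and the most abundant gene. Gabpb1 was named after its values were seen, because only 2 genes of its list were called.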

Additional observations from a re-analysis of the deposited data

Results flagged for a closer look

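The level of each member, its share among the members, the summed share and the ratios to Hk2 and to the nuclear-encoded subunits were examined for single libraries far from the rest of their group of 4. In 46 groups, 4 such values were found, in 3 libraries, and about 1 in 20 groups, or 2.3 of 46, would be marked by chance. In coculture replicate 3, mt-Nd2 held 6.05% of the members' counts, against 2.80% in the next coculture. In the same library mt-Nd4 held 6.51%, against 3.91% in the next. Replicate 3 of MKs cultured alone held 1.68% on mt-Nd5, against 1.34% in the next library. Coculture replicate 2 was low for mt-Atp6, at 17.1% against 19.6% in the nearest coculture.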

How the results depend on the processing

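With 4 libraries per group and standard errors of 0.28 to 0.54, a 2-fold change was not excluded in 9 of the 10 members. No member was called in edgeR or under any of the 20 alternatives, with 1 exception. Scaled to the nuclear-encoded respiratory chain, where the median of all genes was −0.59 on the log2 scale, 1 member was called (mt-Co1, −1.27) and the members' median was −0.45. The fold changes became −0.17 for mt-Nd1, −0.058 for mt-Nd2, −0.45 for mt-Nd4, −0.30 for mt-Nd5, −0.42 for mt-Cytb, −0.64 for mt-Atp6 and −0.45 for mt-Atp8. Scaled to the MK and platelet markers, with that median at 0.33, mt-Co2 became 0.16 and mt-Co3 0.14. With at least 10 counts in every library mt-Atp6 became −0.10. Leaving out each library gave −0.53 to 0.20 for mt-Co2, −0.16 to 0.42 for mt-Atp6, −0.11 to 0.62 for mt-Nd4 and −0.028 to 0.72 for mt-Atp8, with none called. The members' median then ran from −0.07 to 0.55. Counted against the nuclear-encoded subunits, the summed share differed by −0.62 on the log2 scale. The ratio of mt-Nd1 to Hk2 ran from 0.75 to 1.70 (log2) without single libraries and was −0.75 with Gapdh. The nuclear-encoded subunits called higher, run under alternatives chosen after seeing the data, numbered 45 scaled to the markers, 3 scaled to themselves, 1 scaled to the summed members (5 without coculture replicate 3 and 11 with the block), 14 with the replicate block, and 3 to 36 without single libraries. The causes were not tested. The labels do not say whether the replicate numbers pair the libraries, and pairing was not tested. Same-number deviations correlated at 0.37, 0.02, 0.15 and 0.03, and those of different numbers at −0.28 to 0.10. With the replicate block the median of the members was 0.32, none was called, and the ratio to Hk2 had an exact sign-flip p of 0.125. A sign-flip test of 4 pairs cannot go below that value, and the ratio was higher in coculture for every replicate number. The block gave 1096 genes higher and 573 lower, against 1544 and 857. With 8 libraries, DESeq2 called 2296 higher and 1343 lower, the fit scaled to the summed members 818 and 413, the marker-scaled fit 2203 and 533, and the fit scaled to the respiratory chain 885 and 1728. Without coculture replicate 3, 2530 were higher and 1890 lower, and without each other library 1071 to 1518 and 539 to 695.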
